A study of Mus musculus with 3 samples.

Results

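The genes described here are 10 genes of lipolysis and of the lipid droplet, named by symbol: the lipase genes Pnpla2, Lipe and Mgll, the lipase regulators Abhd5, Abhd15, G0s2 and Hilpda, and the perilipin genes Plin1, Plin2 and Plin5. All probe sets of the array whose annotation gives exactly 1 of these symbols were taken. That gave 18 probe sets for 9 of the 10 genes. No probe set carried the symbol Plin1, which was therefore not analysed here. A probe set was read where its signal was at least 100 on 1 or more arrays, which 11 of the 18 did, and these represented 8 of the 10 genes among the 6896 genes that passed the same limit, of 18194 with a probe set. Plin5 stayed below 100 on all arrays. Pnpla2, Lipe, Mgll, Abhd5 and Abhd15 each had 1 further probe set that was not read, with highest signals of 22.4, 5.4, 1.3, 3.9 and 9.0 in that order.

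The samples were immortalized brown preadipocytes (iBATs) differentiated in culture to day 8. They were given insulin and indomethacin for the first 2 days and insulin without indomethacin after that. They were then exposed to the pan-β-adrenergic agonist isoproterenol (ISO) for 0, 1 or 2 h. Each time point was measured on 1 Affymetrix mouse array, and the labels do not give the dose of ISO used for the arrays. The study's legend for its array time course gives 1 μM. With 1 array per time point there was no replicate error, so no p-value is given for any value below. The cells are an immortalized line, and the labels name no separate cultures.

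Lipolysis breaks stored triglyceride down in steps. ATGL, the product of Pnpla2, removes the first fatty acid, hormone-sensitive lipase (Lipe) acts mainly on the diacylglycerol, and monoacylglycerol lipase (Mgll) releases the last fatty acid and glycerol. In fat cells β-adrenergic signalling raises cyclic AMP, and protein kinase A then phosphorylates hormone-sensitive lipase and perilipin 1 at the droplet surface, which frees the ATGL coactivator ABHD5. These steps act on existing proteins within minutes, and brown adipocytes burn the released fatty acids for heat. The arrays report on mRNA alone.

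The inhibitor gene G0s2 was lower at 1 and 2 h of ISO than at 0 h, and Hilpda, which encodes another inhibitor of ATGL, was higher at both times. Abhd15, a regulator, was lower at 2 h. Plin2 had higher signals on both ISO arrays without reaching the threshold used, and the probe sets read for Pnpla2, Lipe, Mgll and Abhd5 had log2 ratios to 0 h between -0.20 and 0.37.

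The sequences before the transcription starts of the 4 genes with the largest ratios are shown so that they can be set side by side. Each run is the 250 bases upstream of a start in RefSeq (GRCm38.p6), given 5′ to 3′ on the strand of the gene: Hilpda at chr6:29272238-29272487 (plus strand, the upstream of its 2 starts), Plin2 at chr4:86670060-86670309 (minus strand), G0s2 at chr1:193273189-193273438 (minus strand) and Abhd15 at chr11:77514867-77515116 (plus strand). Capitals mark matches on either strand to TGACG, the shared part of cyclic AMP response elements, and to ACGTG or GCGTG, cores of hypoxia response elements.
Hilpda: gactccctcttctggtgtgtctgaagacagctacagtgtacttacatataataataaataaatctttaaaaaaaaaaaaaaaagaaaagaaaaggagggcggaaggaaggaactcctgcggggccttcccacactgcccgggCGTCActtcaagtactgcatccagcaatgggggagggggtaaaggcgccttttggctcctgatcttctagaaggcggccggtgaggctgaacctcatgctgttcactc
Plin2: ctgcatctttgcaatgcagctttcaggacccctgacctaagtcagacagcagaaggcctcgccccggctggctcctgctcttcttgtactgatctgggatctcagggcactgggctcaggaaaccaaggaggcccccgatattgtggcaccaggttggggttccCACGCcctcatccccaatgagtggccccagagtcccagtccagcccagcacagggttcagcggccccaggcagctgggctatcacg
G0s2: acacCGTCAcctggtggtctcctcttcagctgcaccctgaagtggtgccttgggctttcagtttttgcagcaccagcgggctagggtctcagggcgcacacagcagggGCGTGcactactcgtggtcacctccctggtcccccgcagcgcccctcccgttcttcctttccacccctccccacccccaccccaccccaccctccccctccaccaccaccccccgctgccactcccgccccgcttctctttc
Abhd15: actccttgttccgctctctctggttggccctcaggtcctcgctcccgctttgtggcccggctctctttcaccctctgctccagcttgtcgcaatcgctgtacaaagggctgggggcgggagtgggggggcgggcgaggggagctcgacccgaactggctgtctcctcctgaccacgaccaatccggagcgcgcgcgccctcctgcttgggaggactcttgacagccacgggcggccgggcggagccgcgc

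Hilpda, which rose, and G0s2, which fell, each held 1 TGACG match, on the strand opposite to the gene. That of Hilpda began 108 bases before the start and that of G0s2 began 246 bases before it. Plin2 and G0s2 each held 1 GCGTG match, and the window of Abhd15 held none of these letters. RefSeq had 14 windows for the 10 genes, of which those of Hilpda share 112 bases, and the TGACG match printed lies in both. TGACG was in 4 of these 14 (both windows of Hilpda, and those of G0s2 and Abhd5), against 17.8% of all 32851 windows of this length. GCGTG was in 9 of the 14, against 28.2% of all windows. These 9 belonged to 7 genes: Mgll and Plin5 (both windows), Lipe, Abhd5, G0s2, Hilpda and Plin2. ACGTG was in 4 of the 14 (both windows of Mgll, and 1 each of Lipe and Hilpda), against 16.6%. The 8-base element TGACGTCA, which contains TGACG, was in none of the 14, against 1.55% of all windows. CACGTG, an E-box that overlaps ACGTG, was in 2 of the 14 (Lipe and Mgll), against 6.02%. The downstream start of Hilpda had 2 TGACG, 1 ACGTG and 2 GCGTG matches within 250 bases. A match is a description of the letters, and binding was not measured here.

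Signal here means the MAS5 value, which is an intensity on a linear scale for each probe set, scaled per array to a common trimmed mean. A gene was read from its probe set with the highest mean signal. Changes are given as log2 ratios to 0 h, and a ratio of at least 0.8 in size on the log2 scale was called higher or lower. The study used this size for genes induced at 1 h, and here it was applied in both directions and at each interval. The brown adipocyte marker genes Fabp4, Adipoq, Pparg, Cidea, Ucp1 and Prdm16 all reached a signal of 100 on 1 or more arrays. Their summed signals were 16090.3, 19363.9 and 18714.5 at 0, 1 and 2 h, and Ucp1 alone was called higher. Ucp1 was at 1485.7, 3673.2 and 4166.1, whereas Prdm16 was at 107.5, 77.5 and 69.3 and so reached 100 at 0 h only. At 2 h Pparg and Cidea were also above 0 h, and Fabp4, Adipoq and Prdm16 were below it. None of 6 macrophage and leukocyte, 5 endothelial and 5 muscle markers reached 100, the highest being Cd14 at 93.2, and the macrophage and leukocyte markers summed to 131.2, 130.9 and 210.0 at 0, 1 and 2 h. Of 7 preadipocyte and fibroblast markers 6 did, with a summed signal of 9142.9, 9418.8 and 8715.1 at 0, 1 and 2 h, and none was called at either time. The part of undifferentiated cells in the values below was not tested. In such bulk samples fewer cells of a type and less RNA per cell cannot be told apart.

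Of the 8 genes read, 1 was called higher at 1 h (Hilpda) and 1 lower (G0s2), where 1.58% of all 6896 genes were called higher and 0.218% lower. At 2 h 1 was called higher (Hilpda) and 2 lower (G0s2 and Abhd15), where 2.73% of all genes were called higher and 0.812% lower. Hilpda, at 82.2 at 0 h, passed the limit of 100 only through the ISO arrays, where it was high. With 100 required on all 3 arrays, 0 of the genes were called higher at 1 h and 0 at 2 h. The shares of all genes called higher were then 0.907% and 1.77%. Between 1 h and 2 h none of the 8 was called, where 0.667% of all genes were higher and 0.319% lower at 2 h. The median log2 ratio of the 8 was -0.05 at 1 h and 0.16 at 2 h, beside -0.02 and -0.07 over all genes read. The 8 ratios at 2 h ran from -1.26 to 2.55.

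**Figure D1:**
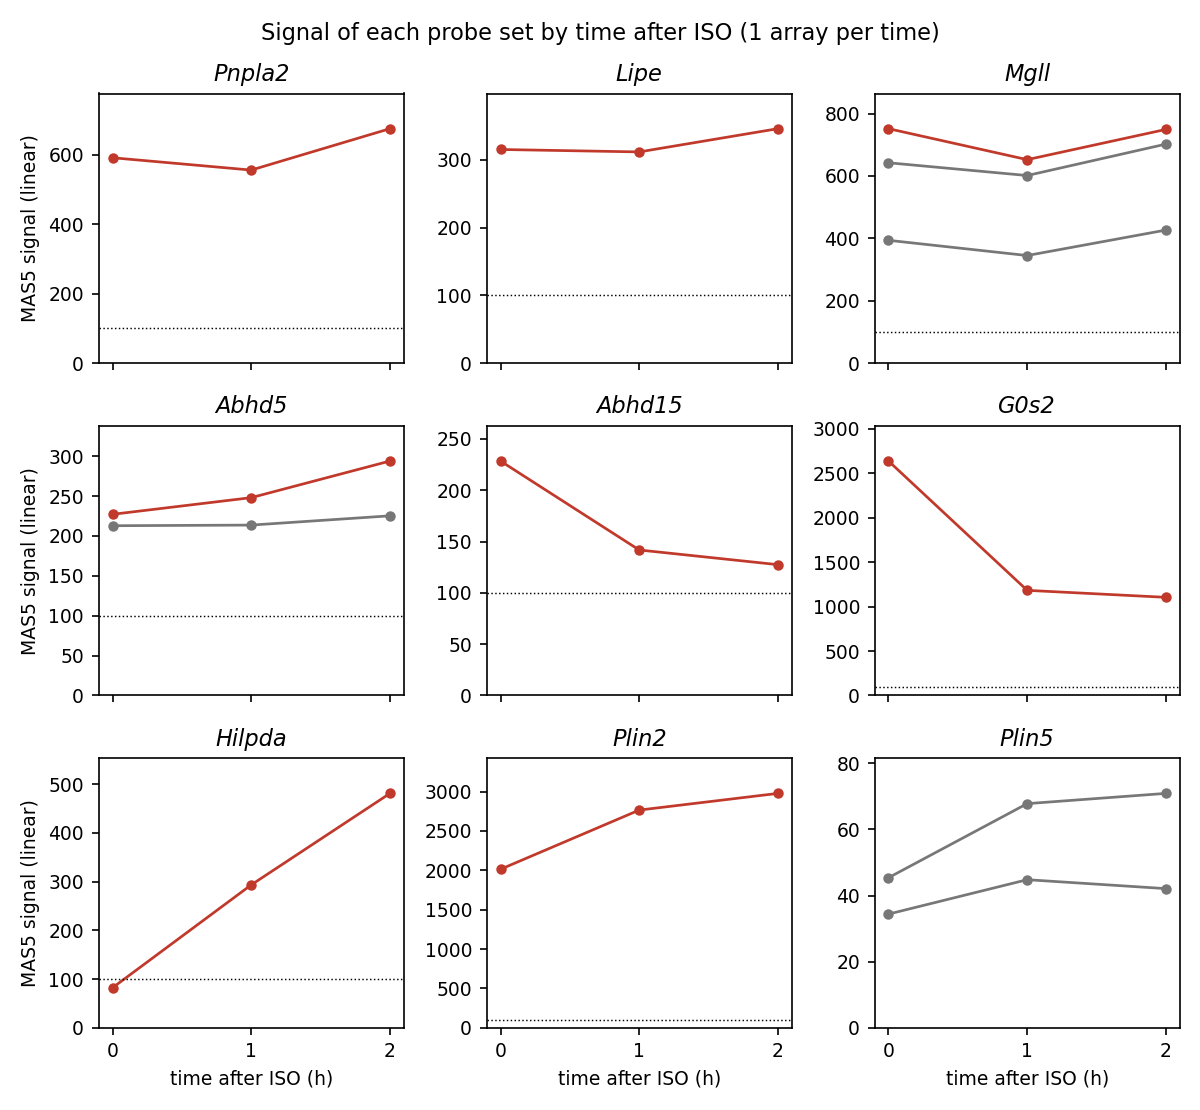
Vertical axes give the MAS5 signal (linear, from 0) and horizontal axes the hours of ISO, in 9 panels of 1 gene each. Every point is a single array, so none has an error bar. Red is the probe set from which the gene was read, grey the other probe sets read (for Plin5 both its probe sets), and the dotted line marks a signal of 100. G0s2 is at 2638.8, 1183.3 and 1104.6 and Hilpda at 82.2, 293.2 and 480.8, whereas the 3 probe sets of Mgll each have their lowest signal at 1 h.

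G0s2 encodes a small protein that binds ATGL and inhibits it. Its signals were 2638.8, 1183.3 and 1104.6 at 0, 1 and 2 h on its only probe set. Both ISO arrays lay below the 0 h array by more than the threshold, with log2 ratios of -1.16 at 1 h and -1.26 at 2 h. The signal at 1 h was 0.448-fold and that at 2 h 0.419-fold of 0 h. G0s2 ranked 4 from the lowest of 6896 genes at 1 h and 6 from the lowest at 2 h. Between the ISO arrays the log2 ratio was -0.10 (2 h over 1 h), and 92.1% of the log2 change at 2 h was present at 1 h. G0s2 was bright on every array, and genes of similar mean signal had a robust spread of log2 ratios (a scaled median absolute deviation) of 0.11 at 1 h and 0.17 at 2 h. That spread contains real change as well as noise and is no replicate error.

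Hilpda encodes a small hypoxia-inducible lipid droplet protein that also inhibits ATGL and is known to promote droplet storage. Its signals were 82.2, 293.2 and 480.8 at 0, 1 and 2 h, on 1 probe set whose suffix marks a sequence shared by several transcripts. The 3 arrays are in rising order, with log2 ratios of 1.83 at 1 h and 2.55 at 2 h, or 3.57-fold and 5.85-fold of 0 h. Hilpda ranked 41 from the highest of 6896 genes at 1 h and 20 from the highest at 2 h. The log2 ratio of 2 h over 1 h was 0.71, which ranked 65 from the highest and was below the threshold. Its 0 h signal was under 100, which makes the size of the rise less certain. With signals below 100 set to 100 the log2 ratios were 1.55 at 1 h and 2.27 at 2 h. The rule of at least 100 on all 3 arrays leaves Hilpda out.

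G0s2 and Hilpda were called in opposite directions. A difference between the log2 ratios of 2 genes does not depend on any single scaling factor applied to an array. That of Hilpda minus G0s2 was 2.99 at 1 h and 3.80 at 2 h, or 2.71 and 3.52 with signals below 100 set to 100. That of G0s2 minus Pnpla2, the gene of the lipase it binds, was -1.07 at 1 h and -1.45 at 2 h, and that of Hilpda minus Pnpla2 was 1.92 and 2.36, or 1.64 and 2.07 with that floor. These numbers describe unequal change and say nothing of the amounts of the mRNAs relative to each other, since signals of different probe sets are not comparable in level.

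Abhd15 encodes an adipocyte protein of the α/β-hydrolase family that binds the phosphodiesterase PDE3B and takes part in the suppression of lipolysis by insulin. Its signals were 228.5, 141.8 and 127.5 at 0, 1 and 2 h on the probe set read. Both ISO arrays were below the 0 h array. The log2 ratio to 0 h was -0.69 at 1 h, short of the threshold, and -0.84 at 2 h, just past it. Abhd15 ranked 26 from the lowest of 6896 genes at 1 h and 49 from the lowest at 2 h. The robust spread among genes of similar signal was 0.18 at 1 h and 0.26 at 2 h. The call at 2 h ended after quantile normalization, cyclic loess or the addition of 32 to each signal, where the ratio lay between -0.63 and -0.79. Cyclic loess was itself run on signals with 32 added, so it is not separate from that addition. Of the log2 change at 2 h as first read, 81.8% was present at 1 h. Pde3b itself, a phosphodiesterase that degrades cyclic AMP, had signals of 1708.1, 1905.7 and 1871.0 at 0, 1 and 2 h, with log2 ratios of 0.16 and 0.13.

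**Figure D2:**
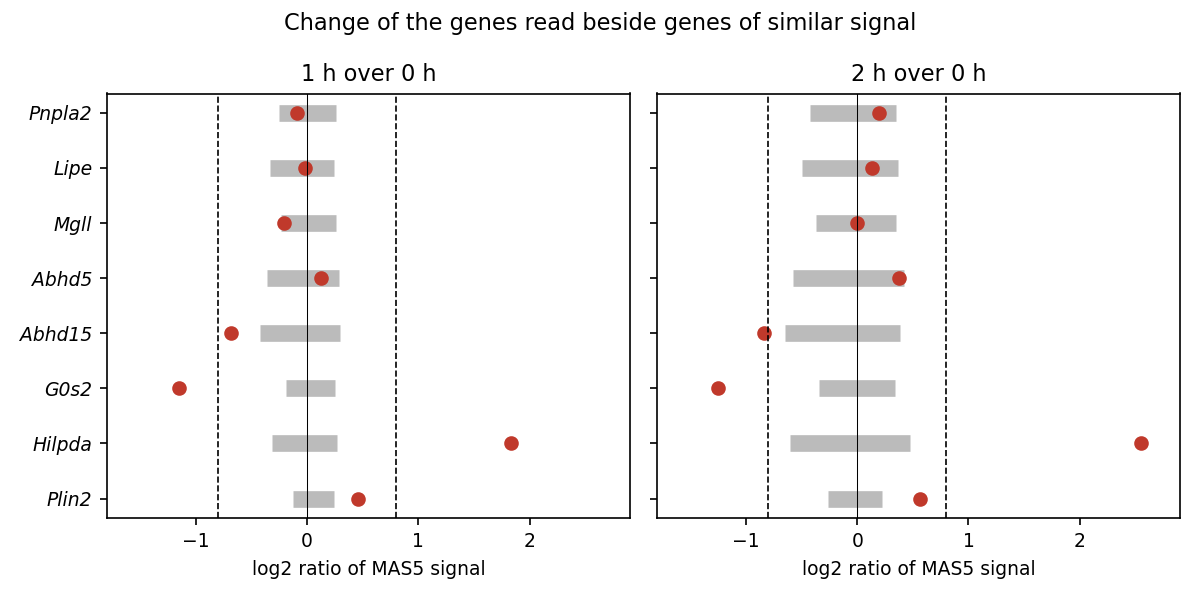
Each row is 1 of the 8 genes read, and the horizontal axes give its log2 signal ratio to 0 h after 1 h (left) and 2 h (right) of ISO. Red points are the genes, grey bars the median ± 2 robust spreads of the genes of similar mean signal, and dashed lines 0.8 in either direction. Hilpda (1.83 and 2.55), G0s2 (-1.16 and -1.26), Abhd15 (-0.69 and -0.84) and Plin2 (0.46 and 0.56) lie outside the grey bars at both times.

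None of the 3 lipase genes was called. Pnpla2, read from 1 probe set, had signals of 591.2, 555.7 and 674.9 at 0, 1 and 2 h. Its log2 ratio was -0.09 at 1 h, or 0.01 with the arrays scaled to the same median, and 0.19 at 2 h. Lipe had signals of 315.1, 311.5 and 345.8 at 0, 1 and 2 h. The log2 ratios of Lipe were -0.02 at 1 h, or 0.08 with the same median, and 0.13 at 2 h. With the same median the median of all genes at 1 h was also 0.08. For both genes the 2 h array was the highest of the 3. At 2 h Pnpla2 lay 0.23 above the median of genes of similar signal, whose robust spread was 0.19, and Lipe lay 0.20 above, with a spread of 0.22.

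Mgll was read on 3 probe sets, which allows a comparison within the gene. The brightest had signals of 751.4, 652.1 and 749.0 at 0, 1 and 2 h. The others had 642.1, 601.2 and 701.9, and 393.6, 344.8 and 426.4. On all 3 the 1 h array was the lowest, with log2 ratios of -0.20, -0.09 and -0.19 at 1 h. At 2 h the probe sets were at -0.0046, 0.13 and 0.12, so the sign at 2 h was not shared. Probe sets of 1 gene on the same array share its RNA and hybridization and are not replicates of a time point.

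Abhd5 encodes CGI-58, the coactivator that ATGL needs for full activity. Its brighter probe set had signals of 227.1, 248.0 and 293.9 at 0, 1 and 2 h, and its other one had 212.8, 213.6 and 225.2. The 2 h array was the highest on both, but with unequal log2 ratios, 0.37 on the brighter and 0.08 on the other. At 1 h these ratios were 0.13 and 0.01, and the gene was not called.

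Set against the 1 h array, the 2 h array was higher for the 3 lipase genes and Abhd5. The log2 ratio of 2 h over 1 h was 0.28 for Pnpla2, 0.15 for Lipe, 0.20 for Mgll and 0.24 for Abhd5, and it was above 0 on each of the 7 probe sets read for them. Of the 8 genes read 6 had a ratio above 0 over this interval, as did 40.5% of all genes, whose median was -0.04. None of the 4 was called. Pnpla2 stood higher than 92.3% of all genes in this ratio and Lipe higher than 83.4%. With the arrays scaled to the same median the ratio of Pnpla2 was 0.20 and that of Lipe 0.07, and the median of all genes was then -0.12.

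Perilipins coat the droplet. Plin2 encodes a coat protein found on the droplets of most cells, and its mRNA is known to respond to fatty acid load. Its signals were 2013.3, 2764.8 and 2976.7 at 0, 1 and 2 h, so both ISO arrays were above the 0 h array. The log2 ratios to 0 h, 0.46 after 1 h and 0.56 after 2 h, did not reach the threshold, and with the arrays scaled to the same median that after 1 h was 0.56. Plin2 stood higher than 96.7% of all genes at 1 h and 95.5% at 2 h, and genes of similar signal had a robust spread of 0.09 and 0.12. Of the log2 change at 2 h, 81.1% was present at 1 h.

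Plin5, which tethers droplets to mitochondria and binds ATGL and ABHD5 in oxidative tissues, was dim. Its probe sets had signals of 45.4, 67.8 and 70.9, and of 34.4, 44.8 and 42.1, at 0, 1 and 2 h. Both ISO arrays were above the 0 h array on both probe sets, with log2 ratios of 0.58 and 0.38 at 1 h and 0.64 and 0.29 at 2 h. These signals lie below the limit of 100 and are given as values only.

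**Figure D3:**
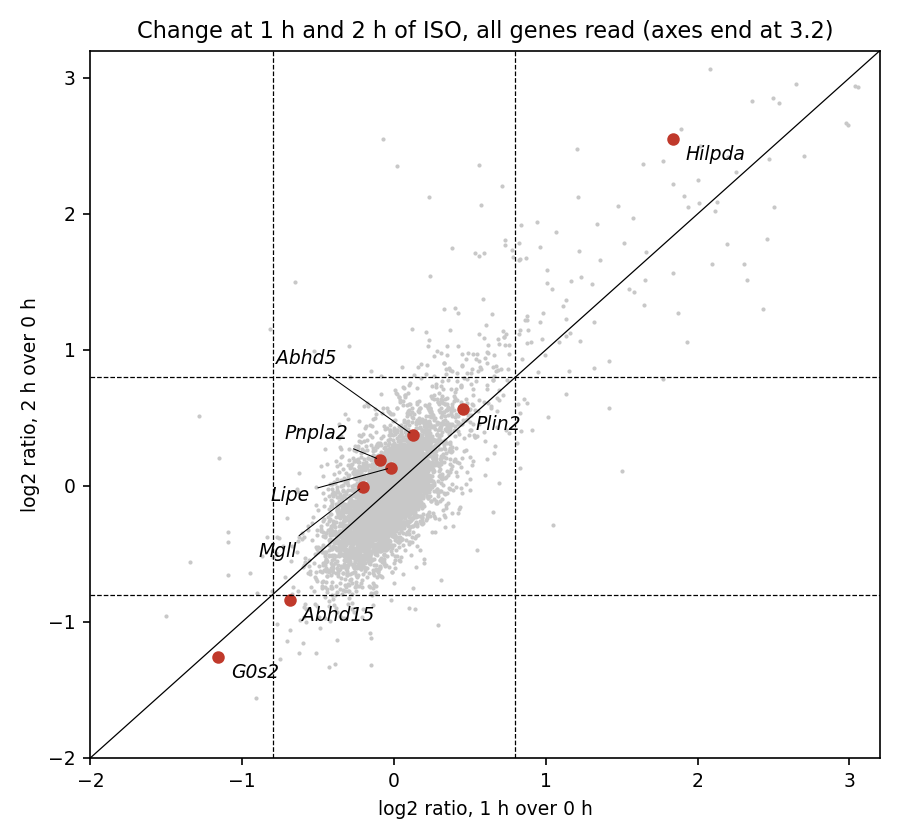
Log2 ratio at 1 h over 0 h (horizontal axis) against that at 2 h over 0 h (vertical axis) for the 6896 genes read (grey, 1 point per gene) and the 8 lipolysis and droplet genes read (red, named). The solid line is equality, dashed lines mark 0.8 in either direction, both axes share the 0 h array, and 8 genes lie beyond the axes. G0s2 and Hilpda are near the ends of the cloud, and the 3 lipase genes and Abhd5 are inside it, above the line.

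The genes most like the 3 called genes over the 3 arrays were found by the distance between pairs of log2 ratios (1 h and 2 h over 0 h) among 6166 genes with at least 100 on all arrays. Nearest to Hilpda were Pde4d, a cyclic AMP phosphodiesterase (distance 0.09), Thbd, which encodes thrombomodulin (0.19), and Phlda1 (0.26). Hilpda itself was at 82.2 at 0 h, and with signals below 100 set to 100 the nearest were Phlda1 (0.14), Pdk4 (0.22) and Cxcl1 (0.29), so the order rests on that dim value. Pde4d had signals of 104.7, 387.8 and 644.1 at 0, 1 and 2 h, and Thbd had 167.2, 676.4 and 943.3. Nearest to Abhd15 were Cdca7l (0.10), Pdik1l (0.10) and Fbxo5 (0.17), of which Fbxo5, an inhibitor of the anaphase-promoting complex, had signals of 279.6, 191.5 and 167.1. Nearest to G0s2 were Cited2, a transcriptional regulator with signals of 584.7, 274.6 and 370.4 (distance 0.60), Abhd15 (0.63) and Fbxo9 (0.63). The limit of 100 on all arrays leaves out genes that fell below it under ISO. Among all 6896 genes read, a search added after the data were seen, the nearest to G0s2 were Cdc42ep3 (0.39), Gm5817 (0.40) and Ankef1 (0.46), those to Abhd15 were Rbak (0.05), Stx17 (0.08) and Zfp760 (0.10), and Inhba (0.17) joined Pde4d and Thbd near Hilpda. With 3 arrays such likeness rests on 2 ratios that share the 0 h array.

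Of 16 other lipases, fatty acid carriers and lipolysis regulators on the array 11 were read, and none was called at 1 or 2 h. Over all genes 1.58% were called higher and 0.218% lower at 1 h, and 2.73% and 0.812% at 2 h. With shares this low, no call among 11 genes does not set them apart from all genes. The log2 ratios of the 11 ran from -0.25 to 0.24 at 1 h and from -0.60 to 0.66 at 2 h, with medians of 0.10 and 0.05. Prkar2b, the regulatory subunit of protein kinase A that prevails in fat cells, was at the upper end, with signals of 873.5, 1034.6 and 1379.2 and all 3 of its probe sets higher at 2 h than at 0 h (log2 ratios of 0.66, 0.49 and 0.42). At the lower end was Pnpla3, a relative of ATGL, with signals of 314.9, 265.7 and 207.5.

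The 4 brightest of these genes were Fabp4, Fabp5, Cd36 and Pde3b. Fabp4, the fatty acid-binding protein of adipocytes, had signals of 7490.0, 7871.8 and 7095.6. Its other 3 probe sets had log2 ratios of -0.03, -0.44 and 0.26 at 1 h and of -0.06, 0.38 and 0.92 at 2 h, so that 1 of the 4, among the dimmer, passed the threshold. Fabp5 had signals of 6235.9, 6656.2 and 6466.0, and Cd36, a fatty acid transporter, had 2656.8, 2560.9 and 2256.9. Ces1d, Ces1f, Dagla, Aqp7 and Fabp3 stayed below 100, with Fabp3 at most at 63.3.

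Of 16 other genes of the droplet coat and of droplet size 14 were read, and none was called at 1 or 2 h. Of all genes at most 2.73% were called in either direction at these times, so this does not set the 14 apart. The log2 ratios of the 14 to 0 h had medians of -0.09 (1 h) and -0.11 (2 h). Of the 14, 11 were below 0 at 1 h, as were 55.6% of all genes. With the arrays scaled to the same median 7 of the 14 were below 0 at 1 h, as were 31.6% of all genes. The median of the 14 was then 0.01 and that of all genes 0.08. Cidea, which promotes droplet fusion in brown fat, had signals of 788.1, 786.9 and 1041.1 and was the highest at 2 h, with a log2 ratio of 0.40. Ldah, a droplet-associated hydrolase, was the lowest, with signals of 247.2, 181.2 and 168.1 and log2 ratios of -0.45 and -0.56, and its other probe set was at -0.20 and -0.53. Among the other perilipins Plin4 had signals of 1321.9, 1441.8 and 1534.1, and Plin3 had 290.3, 288.1 and 262.3. Cav1, the caveolin of the adipocyte surface, had signals of 2923.6, 2617.7 and 2582.0, and Bscl2, which encodes the droplet assembly protein seipin, had 1322.9, 1207.5 and 1214.3. Cideb and Fitm1 stayed below 100.

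**Figure D4:**
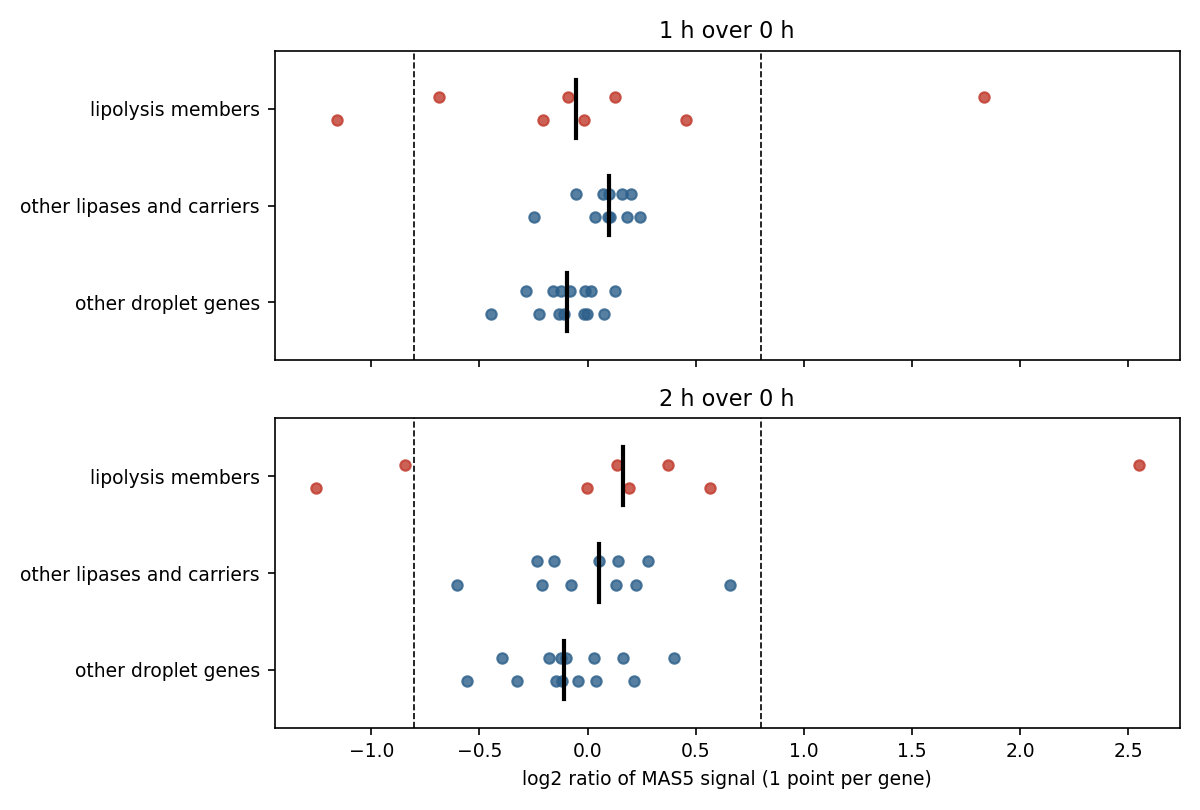
Horizontal axes give the log2 signal ratio to 0 h after 1 h (top) and 2 h (bottom) of ISO, for the 8 lipolysis and droplet genes read (red) and for 11 other lipases and carriers and 14 other droplet genes (blue), with a point for each gene. The median of each list is drawn as a black bar, and 0.8 in either direction as dashed lines. No blue point passes a dashed line, where at most 2.73% of all genes were called in either direction. At 2 h the medians are 0.16, 0.05 and -0.11 from top to bottom.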

How the data were processed

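RNA of iBATs at 0, 1 and 2 h of ISO was hybridized by the authors to Affymetrix mouse genome arrays, 1 per time point. The deposited values are MAS5 signals, 1 linear intensity per probe set (45101), already scaled per array. The submitters' processing notes give MAS5 as the tool. The methods describe a filter on absent calls and dim signals, which the deposited table does not carry, and detection calls were not used here. The number of arrays limits the precision.

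Symbols came from the array annotation: 34958 probe sets had 1 symbol, 932 had several (not used) and 9211 had none. Python 3.11.15 (pandas 2.3.3, numpy 2.4.6) gave the log2 ratios, signals listed as 0 being set to 0.1. The spread among genes of similar signal was taken in 20 bins of mean signal. Every gene of the set was named with all its probe sets. From each of the 2 other lists the 4 brightest genes were named by rule, and Prkar2b, Pnpla3, Ldah and Plin3 were added after their values were seen. For each called gene the 3 nearest patterns were named. The genes, lists and alternatives were chosen with earlier results of these data known. The calculation was run on simulated data with planted changes larger than the threshold. That checks the code and says nothing of error in the real arrays. Alternatives covered filters, low signals, scaling (for cyclic loess, R 4.3.3 and limma 3.58.1), probe sets and the threshold. Cyclic loess was run on log2 signals after 32 was added to each signal. Those for the nearest patterns, the differences between genes and the other lists were added after the data were seen. Figures were drawn with matplotlib 3.10.9.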

Additional observations from a re-analysis of the deposited data

Results flagged for a closer look

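Pnpla2 and Lipe had log2 ratios to 0 h of opposite sign at 1 h and 2 h, below 0 at 1 h and above 0 at 2 h. The ratio at 2 h minus that at 1 h was 0.28 for Pnpla2 and 0.15 for Lipe. Both comparisons share the 0 h array, there is 1 array per time point, and the difference between the times was not tested. At 1 h the ratios, -0.09 for Pnpla2 and -0.02 for Lipe, were smaller in size than the robust spread among genes of similar signal (0.13 and 0.14). With the arrays scaled to the same median neither gene was below 0 at 1 h, but the median of all genes was then 0.08. Pnpla2, at 0.01, was still below that median. The scaling rests on array medians of 13.6, 12.7 and 13.4, which lie far under the limit of 100.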

How the results depend on the processing

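The rise of Hilpda was the only call in the upward direction, and it was absent in the settings that leave that gene out: where a signal of 100 or more was required on every array, 0 genes were higher at 1 h and 0 at 2 h, and likewise 0 at both times with probe sets of shared sequence left out, where Pnpla2 and Mgll could not be read either. In the other settings its log2 ratio ran from 1.51 to 1.93 at 1 h and from 2.17 to 2.58 at 2 h. The call of G0s2 held in all settings tried, from -1.19 to -1.06 at 1 h and from -1.31 to -1.22 at 2 h. The 2 genes lower at 2 h were 1 (G0s2) with 32 added to each signal, after quantile normalization and after cyclic loess. Cyclic loess was itself run with 32 added. The same held at a threshold of 2-fold. Abhd15 missed the threshold in each of these settings. Scaling to the same median moved the median of all genes at 1 h by 0.10. No log2 ratio of a called gene changed sign. Calls over all genes depended on dim signals. At 1 h (109 higher, 15 lower) they were 2181 and 2188 without a filter and 56 and 5 with 100 required on every array. At 2 h (188 higher, 56 lower) they were 2410 and 2164, and 109 and 12. Genes lower at 1 h numbered 8 with a minimum of 200, 9 with dim signals set to 100, 8 with 32 added, 7 after cyclic loess and 28 by any probe set, and at 2 h 16, 22, 21, 11 and 84. For 2 h over 1 h (46 higher, 22 lower) the lowest counts were 15 and 6, and without a filter 2273 and 1973. Plin5 was read without a filter alone, at 0.58 and 0.64. Limits are the single array per time point and the dim signals. No paired analysis was possible because each time point has 1 array.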
